A study of Homo sapiens with 6 samples.

Results

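The peroxiredoxin and thioredoxin system was followed through 10 genes, chosen by symbol and found once each among the 60649 rows of the count table: PRDX1, PRDX2, PRDX3, PRDX4, PRDX5, PRDX6, TXN, TXN2, TXNRD1 and TXNRD2. All 10 were among the 16039 genes with enough counts to test. The cells are 786-O, a long-established line from a human clear cell renal carcinoma that has lost VHL function. The 3 groups, of 2 RNA-seq libraries each, are named shRNA1 and shRNA2 for 2 hairpins aimed at LINC02068, a long non-coding RNA, and shControl for a control hairpin, and no other treatment is listed. Whether the libraries of a group are separate cultures or clones is not stated, and the p-values below may therefore reflect technical spread alone.

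Peroxiredoxins are abundant enzymes that reduce hydrogen peroxide and organic peroxides with a reactive cysteine. Most of them are returned to the reduced state by thioredoxin, a small protein whose disulfide is in turn reduced by thioredoxin reductase, a selenocysteine enzyme that draws its electrons from NADPH. The cytosol and the mitochondria each have their own thioredoxin and reductase, and in many tumours the cytosolic chain is linked to resistance against oxidants.

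Total counts ran from 15376448 to 37311846 per library, and 1 CPM (counts-per-million, over TMM-scaled library sizes) corresponded to 14.9 to 36.0 counts. Counts of the targeted RNA, LINC02068, were low: 20 and 32 in shControl against 9 and 2 in shRNA1 and 17 and 10 in shRNA2, too few for a firm measure of the knockdown. Averaged over the hairpins, its log2 fold change of −1.46 ± 0.59 (SE) was called (edgeR adjusted p = 0.0447), a call that was lost with DESeq2 (adjusted p = 0.107) and with single libraries left out (up to 0.219). It was not called for shRNA1 (−1.70 ± 0.75, edgeR adjusted p = 0.0690) or shRNA2 (−1.21 ± 0.68, 0.148) taken singly. The name knockdown libraries is used below for the 4 libraries labelled shRNA1 or shRNA2, whatever their LINC02068 count. The line expressed the renal factor PAX8 at 306 to 335 CPM. The leukocyte genes PTPRC and CD3E, CDH5 of endothelium and the globin genes HBB, HBA1 and HBA2 had no counts. CD68, also chosen as a leukocyte marker, was at 35.8 to 44 CPM, and the endothelial PECAM1 had 4 to 30 counts per library. VWF, a further endothelial marker, had 4 counts in shRNA1 replicate 2 and 0 in the other libraries. The library shRNA1 replicate 1 lay apart on the second principal component (15.1% of the variance).

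Of the 10 genes, 7 were higher and 2 lower with the mean of both hairpins, and TXNRD2 was not called. Against this stands the background of the comparison, in which 57.5% of all tested genes were called (28.6% higher and 28.9% lower). The median log2 fold change was 0.41 over the 10 genes and −0.03 over all tested genes. The same split of 7 higher, 2 lower and 1 not called was found with shRNA1 alone, where 52.4% of all genes were called (26.8% higher and 25.6% lower), and with shRNA2 alone, where 52.8% were (26.7% and 26.1%). The 2 hairpins share their control libraries. For each of the 9 called genes, all 4 knockdown libraries lay on the same side of both control libraries, as the plot of levels by library shows. The share of all tested genes separated in this way was not counted, so the separation cannot be called particular to these genes.

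**Figure D1:**
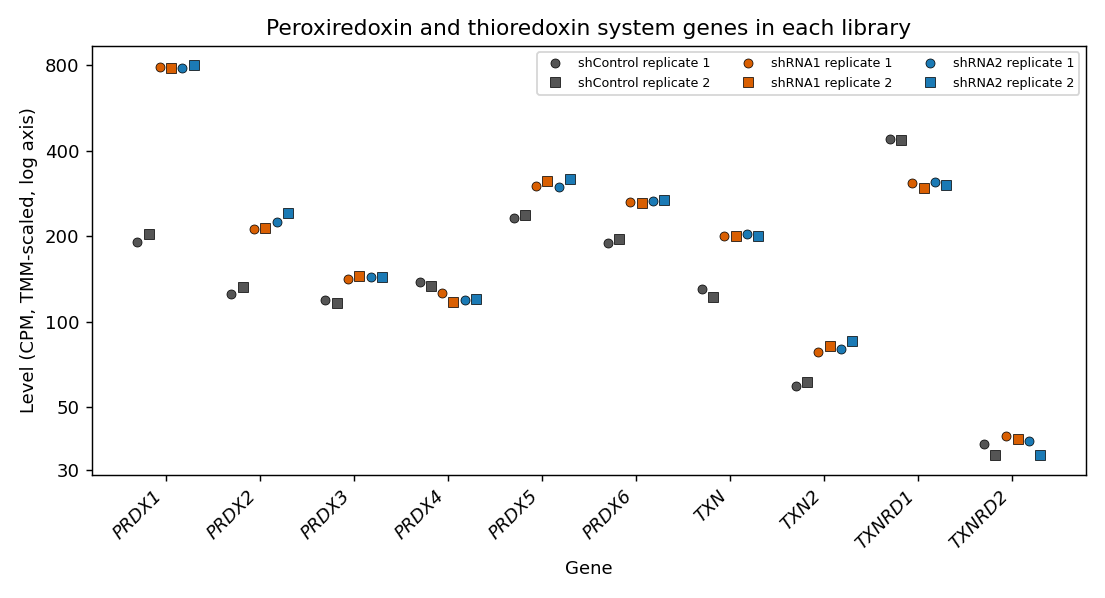
Level of each gene in each of the 6 libraries (vertical log axis, CPM after TMM scaling), grey for shControl, orange for shRNA1 and blue for shRNA2, with circles for replicate 1 and squares for replicate 2. PRDX1 has the widest gap, 191 and 204 CPM in the controls against 783 to 799 with the hairpins, and the points of TXNRD2 overlap.

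PRDX1, the main cytosolic and nuclear peroxiredoxin, had by far the largest change of the 10 genes. Its level was 191 and 204 CPM in the shControl libraries, 788 and 783 CPM with shRNA1, and 785 and 799 CPM with shRNA2. The 4 knockdown libraries were nearly equal, and none came near the controls. The mean of both hairpins was 3.98-fold the control level (95% interval 3.79 to 4.19), a log2 fold change of 1.99 ± 0.03 (SE, edgeR adjusted p = 9.6e-16). Counted from the highest fold change, PRDX1 stood at rank 143 of the 16039 tested genes.

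PRDX2, a second cytosolic peroxiredoxin known from red blood cells and neurons, was at 125 and 132 CPM in the controls. It was at 212 and 213 CPM with shRNA1 and at 225 and 242 CPM with shRNA2, so all knockdown libraries were above both controls and those of shRNA2 the highest. The log2 fold change was 0.73 ± 0.05 with shRNA1 and 0.86 ± 0.05 with shRNA2 (edgeR adjusted p = 3.4e-09 and 4.0e-10). PRDX6, the single-cysteine peroxiredoxin that is reduced through glutathione and also acts on phospholipids, was at 190 and 195 CPM in the controls. With shRNA1 it was at 265 and 262 CPM and with shRNA2 at 266 and 269 CPM. This rise was smaller but uniform, at 0.46 ± 0.03 on the log2 scale for the mean of both hairpins (edgeR adjusted p = 6.8e-09).

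The mitochondrial peroxiredoxins rose by less in the main analysis, but genes were not tested against each other. PRDX3, the matrix enzyme, was at 119 and 116 CPM in the controls, 141 and 145 CPM with shRNA1, and 144 and 144 CPM with shRNA2. That is a log2 fold change of 0.29 ± 0.04 for the mean of both hairpins (edgeR adjusted p = 1.3e-05). It did not pass a test against a change of 1.2-fold (adjusted p = 0.189). After a trend with gene length and GC content was removed, the value for PRDX3 was larger, 0.42 with shRNA1 and 0.42 with shRNA2. PRDX5, which is found in mitochondria, peroxisomes and cytosol, was at 232 and 237 CPM in the controls, 300 and 313 CPM with shRNA1, and 298 and 318 CPM with shRNA2. Its groups did not overlap, and the level rose by 0.39 ± 0.04 on the log2 scale (edgeR adjusted p = 1.6e-07).

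PRDX4, the peroxiredoxin of the endoplasmic reticulum, where it helps to form disulfides in new proteins, was the only peroxiredoxin called lower. It was at 138 and 134 CPM in the controls, 126 and 117 CPM with shRNA1, and 119 and 120 CPM with shRNA2. The gap between the closest libraries of the groups was narrow, 134 against 126 CPM. The log2 fold change was −0.17 ± 0.04 for the mean of both hairpins (edgeR adjusted p = 0.00256), and the change did not pass the test against 1.2-fold (adjusted p = 0.979). For shRNA1 alone the call (−0.16, adjusted p = 0.0140) was lost without shRNA1 replicate 2 (−0.09, 0.238) or shControl replicate 1 (−0.15, 0.0778), and after a trend with gene length and GC content was removed (−0.10, 0.109).

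**Figure D2:**
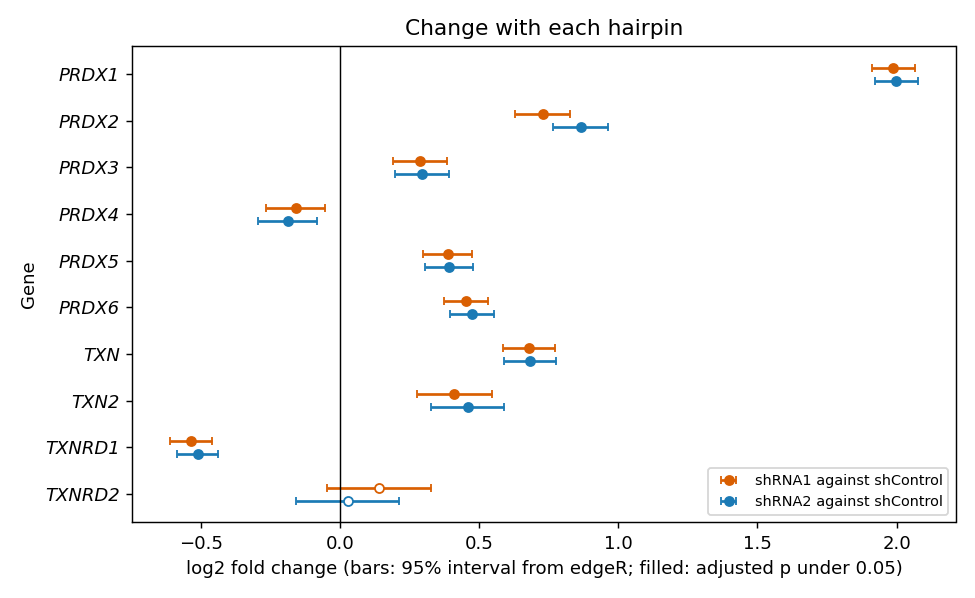
Log2 fold change of each gene with shRNA1 (orange) and shRNA2 (blue) against shControl, with 95% intervals from edgeR as bars and filled points where the adjusted p was under 0.05. The 2 hairpins lie on top of each other for most genes, from 1.99 and 2.00 for PRDX1 down to −0.54 and −0.51 for TXNRD1, and only TXNRD2 has open points.

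TXN, cytosolic thioredoxin, the electron donor of PRDX1 and PRDX2, was at 130 and 122 CPM in the controls. With shRNA1 it was at 201 CPM in both libraries and with shRNA2 at 203 and 200 CPM, so that the knockdown libraries were nearly equal and well above the controls. The log2 fold change was 0.68 ± 0.04 for the mean of both hairpins (edgeR adjusted p = 6.1e-10). TXN2, the mitochondrial thioredoxin that serves PRDX3 and PRDX5, was at 59.4 and 61.1 CPM in the controls, 78.1 and 81.9 CPM with shRNA1, and 80.2 and 85.5 CPM with shRNA2. It rose by 0.43 ± 0.06 on the log2 scale (edgeR adjusted p = 6.1e-06), with no overlap between knockdown and control libraries.

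Neither reductase was called higher. TXNRD1, the cytosolic thioredoxin reductase, was at 440 and 437 CPM in the controls, 308 and 296 CPM with shRNA1, and 310 and 304 CPM with shRNA2. All 4 knockdown libraries were below the controls, by a log2 fold change of −0.53 ± 0.03 (edgeR adjusted p = 5.6e-10), or 0.695 of the control level (95% interval 0.665 to 0.726). TXNRD2, the mitochondrial reductase, was at 37.1 and 33.9 CPM in the controls, 39.6 and 38.5 CPM with shRNA1, and 38.1 and 34.0 CPM with shRNA2. These libraries overlapped, and the log2 fold change of 0.08 (95% interval −0.08 to 0.25, edgeR adjusted p = 0.375) leaves room for a small change in either direction.

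The promoter of TXNRD1 is shown because this gene was the exception among the cytosolic members and because it is a textbook target of NRF2, the factor that binds antioxidant response elements. Which of the other genes in this report are NRF2 targets was not marked. RefSeq windows on GRCh38.p14, from 250 bases before to 50 after a transcript start, were matched for 7 of the 10 genes (11 windows). No window was matched for PRDX1, PRDX6 or TXN2, so the promoters of these genes were not searched. The core of that element, TGACNNNGC, was searched on both strands. It was found in 2 of the 11 windows, those of the 2 TXNRD1 starts, and in 13.3% of all 35116 windows, so its share among these genes was near the background. The stretches below run 5′ to 3′ on the plus strand of chromosome 12 with the match in capitals.
TXNRD1 upstream start, chr12:104215650-104215718: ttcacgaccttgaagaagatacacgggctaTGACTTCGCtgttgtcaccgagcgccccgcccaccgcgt
TXNRD1 downstream start, chr12:104286900-104286968: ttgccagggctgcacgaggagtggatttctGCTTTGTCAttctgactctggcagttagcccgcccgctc
The first match begins 99 bases before its start site and reads forward. The second begins 102 bases before its start site and lies on the opposite strand. A further match spans the upstream start itself. The windows of TXN, PRDX2, PRDX3, PRDX4, PRDX5 and TXNRD2 did not hold these letters, and a match is not a measured binding site.

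Levels were set side by side between genes only after division by exon length (CPM per kb of all annotated exons). In the controls PRDX5 led at 263 ± 4.07 CPM per kb (SD, n = 2), ahead of PRDX1 at 130 ± 5.95, TXN at 110 ± 4.90, PRDX6 at 81.3 ± 1.43 and PRDX4 at 71.5 ± 1.53. TXNRD1 followed at 65.3 ± 0.345, PRDX2 at 61.3 ± 2.5, PRDX3 at 34.4 ± 0.672 and TXN2 at 29.4 ± 0.593, and TXNRD2 was lowest at 4.24 ± 0.266. No neighbours in this order overlapped between their 2 libraries. With the hairpins PRDX1 moved to the top of the order, at 516 ± 2.53 CPM per kb with shRNA1 and 520 ± 6.38 with shRNA2, and PRDX5 was second at 344 ± 10.1 and 345 ± 15.4. Under shRNA2 PRDX6 and PRDX2 overlapped, at 113 ± 0.891 and 112 ± 5.74 CPM per kb. The order in the middle depended on the length used. With the longest coding transcript as length, PRDX5, PRDX1 and TXN led in the controls too, but PRDX2 rose above PRDX6.

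Summed over the 6 peroxiredoxins, the level per length was 633 and 650 CPM per kb in the controls, 1175 and 1181 with shRNA1, and 1174 and 1215 with shRNA2. PRDX1 made up 20.3% ± 0.557 (SD, n = 2) of that sum in the controls, 43.8% ± 0.372 with shRNA1 and 43.5% ± 0.523 with shRNA2. The share of PRDX5 went from 41.0% ± 0.116 to 29.2% ± 0.750 and 28.9% ± 0.592, and that of PRDX4 from 11.2% ± 0.443 to 5.43% ± 0.304 and 5.25% ± 0.0731. With the longest coding transcript as length the share of PRDX1 was 18.4%, 40.9% and 40.5%. These shares are ratios within a library and do not depend on how libraries were scaled. The 10 genes together took 0.178 and 0.179% of all counts in the controls and 0.236 to 0.241% in the knockdown libraries.

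**Figure D3:**
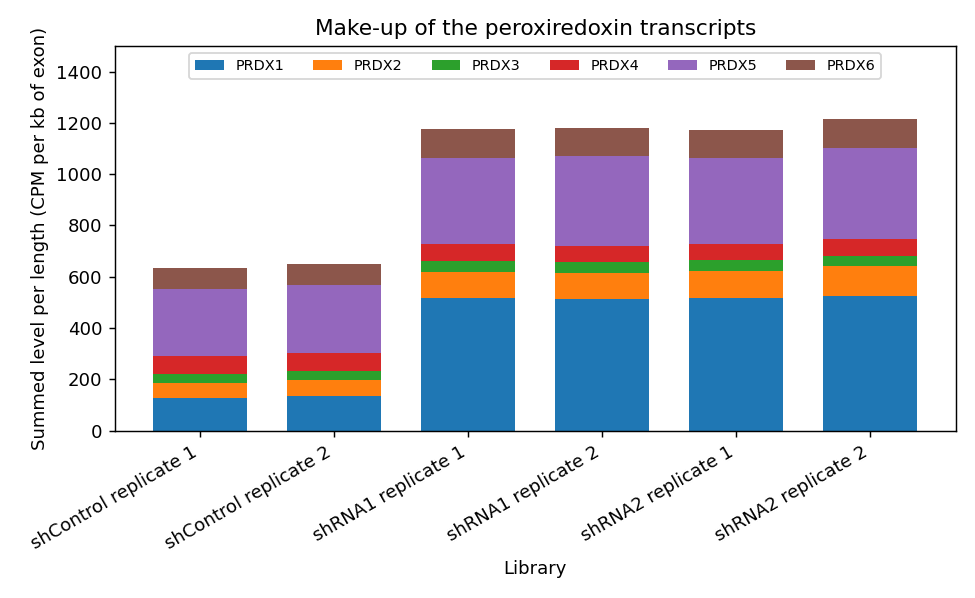
Level per length of the 6 peroxiredoxins (CPM per kb of exon), stacked in each library. The bars of the 4 knockdown libraries reach 1174 to 1215 against 633 and 650 in the controls, and most of the added height is PRDX1, the lowest segment.

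Within a library, the level of TXN per TXNRD1, each per length, was 1.73 and 1.64 in the controls, 3.85 and 3.98 with shRNA1, and 3.86 and 3.85 with shRNA2. The ratio of carrier to reductase was thus higher in each knockdown library than in each control. For the mitochondrial pair, TXN2 per TXNRD2 was 6.54 and 7.36 in the controls, 8.07 and 8.68 with shRNA1, and 8.60 and 10.3 with shRNA2. PRDX1 per TXN went from 1.11 and 1.26 to 2.94 and 2.93 with shRNA1 and a mean of 2.95 ± 0.0757 (SD, n = 2) with shRNA2. PRDX3 per TXN2, the mitochondrial counterpart, moved little and the other way, from a mean of 1.17 ± 0.0465 (SD, n = 2) to 1.07 ± 0.0174 with shRNA1 and 1.04 ± 0.0503 with shRNA2. These ratios are descriptions and were not tested. The size of any such ratio depends on the exon lengths used, while its relative change between libraries does not.

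The hairpins did not differ detectably from each other in any of the 10 genes by the edgeR test of their difference, in which 0.0312% of all tested genes were called (5 genes). PRDX2 had the largest difference, −0.14 ± 0.05 for shRNA1 minus shRNA2 (95% interval −0.23 to −0.04), which did not pass the adjustment over all genes (edgeR adjusted p = 0.905). It was higher in both shRNA2 libraries than in both of shRNA1. TXNRD2 had the widest interval, −0.07 to 0.30.

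Genes around these enzymes were grouped by role. Each count that follows is for the mean of both hairpins and stands beside the same background of 28.6% higher and 28.9% lower, and the lists are a description with no test of their own.

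Proteins that bind, resemble or extend thioredoxin moved both ways, with 8 of 18 genes higher, 7 lower and 3 not called (median log2 fold change 0.10). TXNIP, which binds reduced thioredoxin and blocks it and also limits glucose uptake, was at 72.3 and 75.0 CPM in the controls, 20.4 and 22.3 CPM with shRNA1, and 22.9 and 21.9 CPM with shRNA2. It fell by 1.75 ± 0.07 on the log2 scale (edgeR adjusted p = 6.6e-12), against the rise of its partner TXN. TXN per TXNIP, each per length, was 5.70 and 5.16 in the controls and 28.2 to 31.3 in the knockdown libraries. TXNDC12, a thioredoxin-like protein of the endoplasmic reticulum, fell by 1.99 ± 0.07, the membrane-bound TMX3 by 1.01 ± 0.06 and the disulfide isomerase TXNDC5 by 0.40 ± 0.03 (edgeR adjusted p = 1.5e-12, 1.2e-09 and 1.9e-08). The count of higher genes was 5 under total counts without TMM factors and 5 without shControl replicate 1.

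Genes that repair or control peroxiredoxins were split, with 3 of 7 higher, 2 lower and 2 not called (median 0.68). SRXN1, sulfiredoxin, which restores overoxidised peroxiredoxins, was at 56.9 and 53.9 CPM in the controls and 49.3 to 52.9 CPM in the knockdown libraries. Its log2 fold change of −0.12 ± 0.06 was not called (edgeR adjusted p = 0.107), but was under total counts without TMM factors (−0.28, 0.00122). PRDX1 per SRXN1, each per length, was 5.97 and 6.71 in the controls and 26.4 to 28.2 in the knockdown libraries. SESN2, a stress-induced sestrin, was at 145 ± 1.59 CPM (SD, n = 2) in shControl and fell to 39.2 ± 3.69 (shRNA1) and 37.9 ± 0.667 (shRNA2). The kinase gene STK26 fell from 48.9 ± 3.02 CPM to 25.8 ± 2.81 and 26.4 ± 0.913. PPIA, cyclophilin A, which binds several peroxiredoxins, rose from 949 ± 3.34 CPM to 1733 ± 21.4 and 1739 ± 49.9, and GSTP1, the glutathione transferase that reactivates PRDX6, by 0.68 ± 0.11 on the log2 scale.

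Other thiol reductants were split. Of 8 glutaredoxin and methionine sulfoxide reductase genes 4 were higher, 2 lower and 2 not called (median 0.47). GLRX3 rose by 0.53 ± 0.06, GLRX5, needed for mitochondrial iron-sulfur clusters, by 0.64 ± 0.08, the selenoprotein MSRB1 by 0.68 ± 0.09, and the scarce cytosolic glutaredoxin GLRX, at 5.08 ± 0.584 CPM in shControl (SD, n = 2), rose to 8.71 ± 0.0380 (shRNA1) and 8.84 ± 1.33 (shRNA2). The lower pair was lost as a pair in 9 settings, given in the closing section.

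Of 10 other enzymes that act on superoxide or peroxides, 8 were tested, of which 5 were higher, 2 lower and 1 not called (median 0.36). SOD1, the cytosolic superoxide dismutase, rose from 137 ± 1.48 CPM (SD, n = 2) in shControl to 276 ± 2.53 in shRNA1 and 260 ± 6.36 in shRNA2 (0.97 ± 0.03 on the log2 scale, edgeR adjusted p = 3.0e-12). The glutathione peroxidase genes GPX1 (0.57 ± 0.03), GPX4, which reduces lipid peroxides (0.51 ± 0.05), and GPX8 of the endoplasmic reticulum (0.79 ± 0.07) rose as well. CAT, catalase of peroxisomes, was at 73.0 and 77.1 CPM in the controls and 85.4 to 89.5 CPM in the knockdown libraries. Its small change (0.21 ± 0.05, edgeR adjusted p = 0.00238) lost its call under total counts (0.05, 0.377) and without shControl replicate 1 (0.16, 0.0601).

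Thioredoxin reductases need selenocysteine. Of 8 genes listed under selenoprotein synthesis, 5 were higher, 1 lower and 2 not called (median 0.36). Not all of the 8 make or insert selenocysteine, nor do all of the 5 higher genes. SEPHS1 and the selenophosphate synthetase SEPHS2 rose by 0.77 ± 0.05 and 0.76 ± 0.07, and SECISBP2, which binds selenocysteine insertion elements, by 0.52 ± 0.09. SEPSECS, the enzyme that completes selenocysteine on its tRNA, fell from 9.72 ± 3.25 CPM (SD, n = 2) in shControl to 2.34 ± 0.580 in shRNA1 and 2.60 ± 0.839 in shRNA2 (−1.96 ± 0.25, edgeR adjusted p = 1.0e-05). The 2 control libraries of SEPSECS were far apart, 12.0 and 7.42 CPM, yet both above all knockdown libraries.

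Of 13 genes listed under NADPH supply, some of which make no NADPH themselves, 7 were higher, 2 lower and 4 not called (median 0.28). PGD of the pentose phosphate pathway rose by 0.98 ± 0.04, the cytosolic IDH1 by 1.03 ± 0.04, the mitochondrial IDH2 by 0.89 ± 0.03 and TALDO1 by 0.59 ± 0.03 (edgeR adjusted p = 4.6e-12, 1.6e-11, 5.1e-12 and 6.2e-10). Ribonucleotide reductase, an enzyme that can draw electrons from thioredoxin, has 3 genes here. RRM2, its cell cycle subunit, rose from 51.8 ± 6.75 CPM (SD, n = 2) in shControl to 144 ± 7.60 in shRNA1 and 141 ± 7.31 in shRNA2 (1.46 ± 0.08). RRM1 was called higher by a small margin (0.18 ± 0.04, adjusted p = 0.00206) that was lost under total counts (0.03, 0.596), and RRM2B lower (−0.33 ± 0.07, adjusted p = 0.00156), a call lost once the length and GC trend was removed (−0.15, 0.0951).

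**Figure D4:**
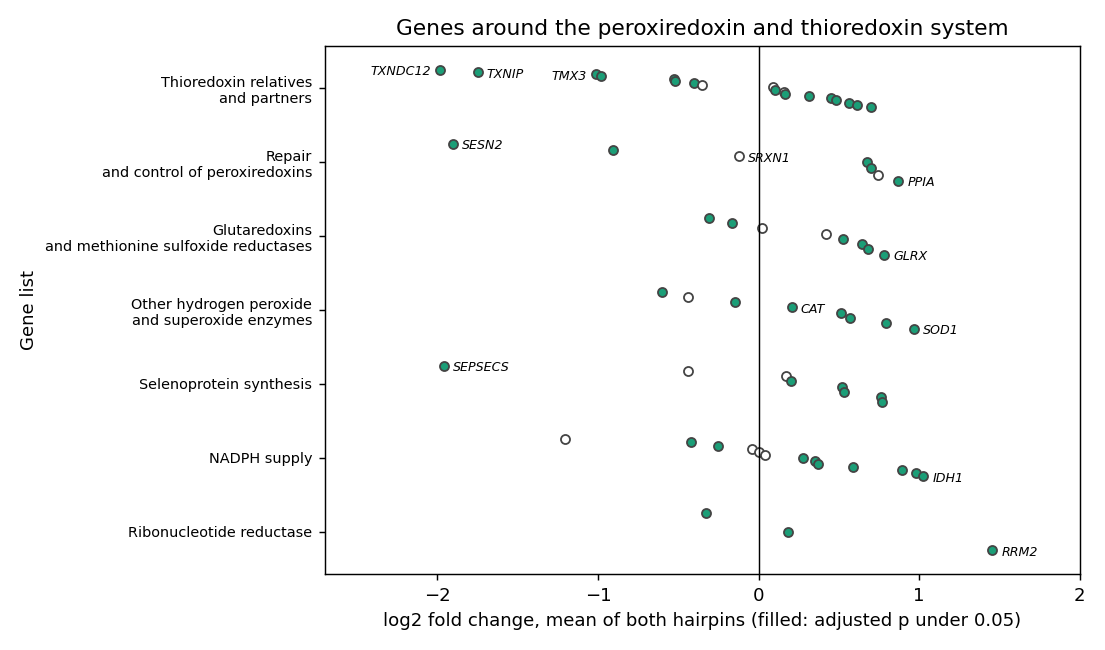
Log2 fold change for the mean of both hairpins of each tested gene in 7 lists of related genes, filled where the edgeR adjusted p was under 0.05. TXNDC12 (−1.99), SEPSECS (−1.96), SESN2 (−1.90) and TXNIP (−1.75) lie far to the left, and RRM2 (1.46) farthest to the right.

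The genes whose profile over the 6 libraries was closest to PRDX1 were SRRT, an RNA processing factor, DHX9, an RNA helicase, and PCYT2 of phosphatidylethanolamine synthesis. The measure was the root mean square difference of log2 CPM centred per gene, 0.0259, 0.0577 and 0.0618. SRRT went from 39.5 and 40.7 CPM in the controls to 155 to 159 CPM in the knockdown libraries. The measure rests on 2 plateaus, controls and knockdowns, so any gene with a like fold change comes near.

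Positions and overlaps were taken from GENCODE 29 on GRCh38, where all 10 genes are protein-coding. PRDX1 lies on the minus strand of chromosome 1 (45511036 to 45523047), PRDX6 on the plus strand of chromosome 1 (173477266 to 173488807), TXN on the minus strand of chromosome 9 (110243811 to 110256640) and TXNRD1 on the plus strand of chromosome 12 (104215779 to 104350305). PRDX1 shares 379 exon bases (24.9% of its exons) with MMACHC on the opposite strand, a gene of 14.8 to 22.3 CPM. MMACHC had 270 to 801 counts per library and PRDX1 3568 to 28242. PRDX2 shares 296 exon bases (14.1%) with the antisense gene AC018761.2, which had 0 to 74 counts per library. Without shared exons, TXNRD1 overlaps RPL18AP3 (49.4 to 68.5 CPM), EID3 (6 to 24 counts) and the antisense gene AC089983.1, with 95 and 121 counts in the controls and 20 to 25 in the knockdown libraries. In the same way PRDX2 overlaps HOOK2 (21.6 to 31.0 CPM), and TXNRD2 overlaps AC000078.1 (0 to 5 counts). The strand setting of the counts is not given in the sources used here, so reads from such partners cannot be told apart. Pseudogenes named after the members held at most 0.211% as many counts as their parent (TXN).

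**Figure D5:**
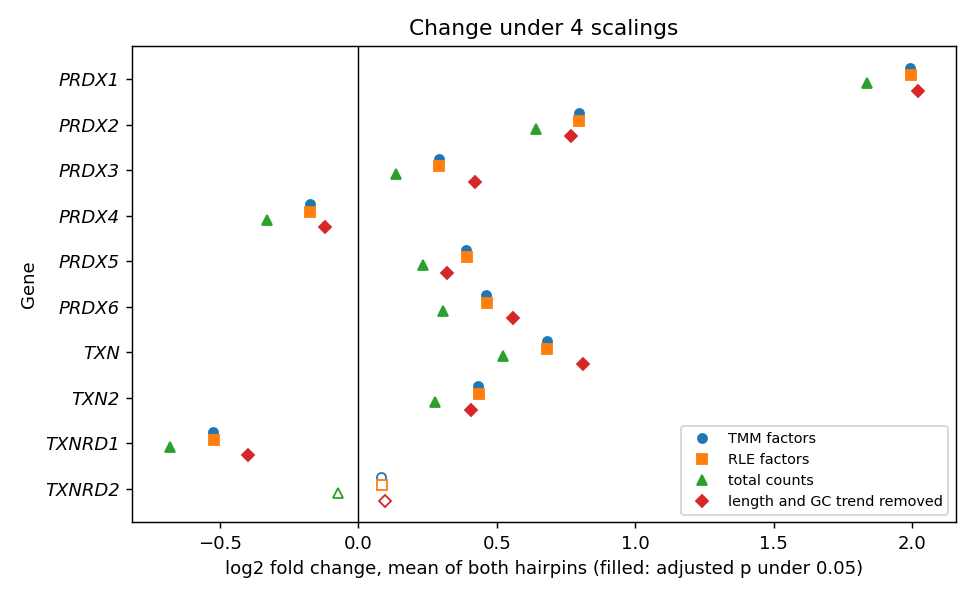
Log2 fold change of each gene for the mean of both hairpins under TMM factors, RLE factors, total counts, and after removal of a trend with gene length and GC content, filled where the adjusted p was under 0.05. Total counts shift every gene to the left by a like amount, PRDX1 from 1.99 to 1.84 and PRDX3 from 0.29 to 0.14, and only TXNRD2 crosses 0.

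Scaling by total counts moved all values together, but removal of the length and GC trend did not. With shRNA1 that removal raised PRDX3 from 0.29 to 0.42 and TXN from 0.68 to 0.78. It lowered PRDX5 from 0.39 to 0.31, PRDX2 from 0.73 to 0.72 and TXN2 from 0.41 to 0.40. The order changed with it, TXN standing above PRDX2 and PRDX3 above PRDX5. When libraries were scaled by total counts alone, the median over all tested genes moved from −0.03 to −0.18, and higher genes made up 36.0% of the calls rather than 49.7%. Relative to that shift the order of the 10 genes was the same, with PRDX1 at 1.84, PRDX2 at 0.64, TXN at 0.52, PRDX6 at 0.31, TXN2 at 0.28, PRDX5 at 0.23, PRDX3 at 0.14, PRDX4 at −0.33 and TXNRD1 at −0.68, all called. TXNRD2 changed sign, to −0.07, and was not called.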

How the data were processed

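The authors deposited a table of whole-number counts for 60649 genes in 6 libraries. The submitters' processing notes name FastQC 0.11.9, Trim Galore 0.6.7, HISAT2 2.2.1, StringTie 2.2.1 and hg38. How reads were counted (tool, annotation, strand, multi-mapping) is not given in the sources used here.

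Counts of the 16039 genes left by filterByExpr were fitted over all libraries with edgeR 4.0.16 (R 4.3.3) by its quasi-likelihood test, with TMM factors and a mean for each group. A gene was called at an adjusted p (Benjamini-Hochberg, over all 16039) under 0.05. In simulated counts with 200 of 15565 genes changed, the code recovered 100% of the 2-fold and 78% of the 1.3-fold changes. There 11.9% of the calls were unchanged genes, more than an adjusted p of 0.05 allows. A far larger share of genes was called in the real data, so that percentage may not carry over. Calls near the threshold should still be read as less firm than their p. Replicates differed by more than sampling noise (median chi-square per gene 1.33 to 1.57), and replicate numbers did not pair the groups (correlations of −0.03 to 0.01). Exon lengths, GC content and positions are those of GENCODE 29, matched for 96.3% of gene IDs.

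Members and lists were chosen with earlier results of these data known. Named are the members, overlapping genes, LINC02068, the 3 genes nearest to PRDX1, TXNIP, SRXN1, GLRX, CAT and, per list, the 4 smallest p-values. Alternatives were DESeq2 1.42.0, RLE factors, total counts, other filters (none, or at least 10 counts in 2 libraries with a mean of 1 CPM), a block on replicate number, fits to the compared groups, a test against 1.2-fold, a length and GC trend removed with mgcv 1.9.3, and leaving out libraries. Transcript length was added after the data were seen. Some genes that this rule covers are not reported here.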

Additional observations from a re-analysis of the deposited data

How the results depend on the processing

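For the 10 genes, 581 of 590 values over the 4 comparisons and all alternatives kept their side of the threshold, 9 lost it and none that was called changed sign. These 9 belong to PRDX3 and PRDX4. Over these and the other named genes, 13 values that were called under neither setting changed sign, that of TXNRD2 under total counts among them. The one reversal among the other named genes was TKT, from 0.04 (not called) to −0.11 under total counts (called). The log2 fold change averaged over hairpins ran from 1.84 to 2.04 for PRDX1, 0.64 to 0.83 for PRDX2, 0.52 to 0.81 for TXN and −0.68 to −0.40 for TXNRD1 across these alternatives. The count of 2 genes called lower became 1 in each of the 3 comparisons with shControl under the test against a fold of 1.2. For shRNA1 it also became 1 with the length and GC trend removed, and it ran from 1 to 2 with a library left out.

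Among the related lists, some direction counts moved. Under total counts, 5 thioredoxin relatives were higher (8 in the main analysis), 2 selenoprotein synthesis genes lower (1), 4 NADPH genes lower (2) and 1 ribonucleotide reductase gene higher (2). Under the test against a fold of 1.2, 5 thioredoxin relatives were higher, 0 glutaredoxin or sulfoxide reductase genes lower (2), 1 other peroxide enzyme lower (2), 1 NADPH gene lower, and 1 ribonucleotide reductase gene called in all, 1 higher and 0 lower (3, 2 and 1). With the length and GC trend removed, 0 glutaredoxin or sulfoxide reductase genes, 1 other peroxide enzyme, 1 NADPH gene and 0 ribonucleotide reductase genes were lower. DESeq2 called 0 glutaredoxin or sulfoxide reductase genes and 1 other peroxide enzyme lower, and without a filter 1 of the former was lower. With a library left out these counts ran from 5 to 8 for higher thioredoxin relatives, 0 to 2 for lower glutaredoxin or sulfoxide reductase genes and 1 to 2 for lower peroxide enzymes. The cause was not tested. Without a filter 30.8% of 30218 genes were called, in place of 57.5%, since many scarce genes were added.

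The replicate block changed no call of the 10 genes and gave 9170 calls in place of 9223, while LINC02068 narrowly lost its call (−1.52, edgeR adjusted p = 0.0506). With it PRDX1 was at 1.99 on the log2 scale for the mean of both hairpins. The labels do not say that replicate numbers mark a shared culture, so the block rests on the number alone. A library left alone in its group was assumed to vary like the others.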

Other observations

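Some genes of the related lists stood out and are given as values only, chosen after their values were seen. TXNRD3, the third thioredoxin reductase gene, known from testis, was at 18.2 and 18.6 CPM in the controls and 11.8 to 14.2 CPM in the knockdown libraries (log2 fold change −0.52 ± 0.11, edgeR adjusted p = 8.6e-04), the same direction as TXNRD1. The splicing factor genes TXNL4A and TXNL4B, which share the thioredoxin fold, moved apart, at 0.62 ± 0.08 and −0.98 ± 0.12. SOD2, the mitochondrial superoxide dismutase, was slightly lower (−0.14 ± 0.03, edgeR adjusted p = 0.00158) where the cytosolic SOD1 rose, and NNT, which makes NADPH inside mitochondria, was lower as well (−0.25 ± 0.06, edgeR adjusted p = 0.00152). Both calls were lost in the test against 1.2-fold. They were also lost after the length and GC trend was removed (−0.02 for SOD2, adjusted p = 0.643, and −0.10 for NNT, adjusted p = 0.165). NADK2, the other gene of the NADPH list called lower, was at −0.42 ± 0.08 (edgeR adjusted p = 2.3e-04). Mitochondrial genes moved both ways, with IDH2 (0.89 ± 0.03) and GLRX5 (0.64 ± 0.08) among the higher. TKT of the pentose phosphate pathway, at 1790 to 1950 CPM, was not called (0.04 ± 0.03, edgeR adjusted p = 0.182), but was called lower under total counts (−0.11, adjusted p = 7.8e-04).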
